A study of Mus musculus with 20 samples.

Results

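The insulin-like growth factor axis was followed here as accessible chromatin around 10 genes: the ligands Igf1 and Igf2, the non-coding RNA H19, the receptors Igf1r and Igf2r, the binding proteins Igfbp2, Igfbp3, Igfbp4 and Igfbp5, and the adaptor Irs1. Peaks of all 20 deposited lists were joined where they shared at least 1 bp, and a joined region within 20 kb of the span of 1 of these genes, or anywhere between Igf2 and H19, was taken as an element. This gave 100 elements of 101352 regions. ATAC-seq, in which a transposase inserts adapters into open DNA, had been run on C2C12, a mouse myoblast line that differentiates into muscle fibres in culture. The cells were wild type (WT) or knockout (KO) for Setd2, which encodes the main methyltransferase for lysine 36 trimethylation on histone H3. Both genotypes were sampled at D0, for which the labels give no medium, and on D1 and D5, when the medium was either the control (CTL) or restricted in methionine (MR). There were 2 libraries in each of the 10 groups. These were replicates 1 and 2 in WT, and 1 library of each of 2 knockout lines in KO, so a difference between KO libraries includes any difference between the lines.

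IGF1 and IGF2 signal through the IGF1 receptor, which recruits IRS1 and activates PI3K, Akt and mTOR, and in myoblasts this pathway drives both proliferation and differentiation. The IGF2 receptor takes up IGF2 and sends it to lysosomes, and the secreted binding proteins hold the ligands and set how much reaches the receptor. Igf2 and H19 are imprinted neighbours on mouse chromosome 7, expressed from the paternal and the maternal copy respectively, and Igf2r is imprinted through Airn, a non-coding RNA that starts inside the gene and runs against it.

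The lists held 20847 to 69881 peaks in 18 libraries, and 644 (CTL) and 1881 (MR) peaks in KO line 1 at D5. Those 2 lists called 0 and 1 of the 100 elements, so values for KO at D5 rest on line 2. The depth of sequencing is unknown because read totals were not used here, and a region without a call is not shown to be closed. The region at the end of Setd2 was called in 10 WT and 8 KO libraries, and peak lists do not show whether the gene was disrupted. Of the myoblast markers, Des, Cdh15 and Chrna1 were called at a gene end (within 1 kb) in 18 libraries and Myod1 in 17, Msc was called in 4 and Tcf21 in 0. Of the other cell types a culture could hold, 1 of 3 adipocyte, 2 of 3 haematopoietic and 2 of 3 fibroblast markers had a peak in at least 1 library. Col1a1 was called in 8 WT and 8 KO libraries, Cd79a in 8 and 2, Dcn in 7 and 2, and Lyz2 in 0 and 3, and their part in the results below was not tested. The endothelial markers Cdh5, Tek and Pecam1 had a peak in 0 libraries.

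By the median, elements of the axis were called as widely as other regions, but their share of calls was lower and few were called throughout. Elements had 38.8% of the possible calls in WT and 26.2% in KO (32.6% without the 2 short lists). All regions had 42.1% and 32.5% (40.3%). An element was called in a median of 5 libraries, as was a region of the whole genome, and the median width was 172.5 bp against 172 bp. Only 4 elements (4%) were called in all 18 libraries with lists of usual length, against 11% of all regions. These were 1 element each of Igf1r and Igfbp5 and 2 of Irs1. Igf1r and Igf2r had 20 elements each, Igfbp5 16, H19 9, Irs1 8, Igfbp3 and Igfbp4 7 each, Igfbp2 6, Igf1 5 and Igf2 2. The 3 innermost elements outside any gene window lay 20643 and 21776 bp from Igf2r and 21967 bp from Igfbp5, and the outermost counted by the window alone lay 19606 bp from H19.

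**Figure D1:**
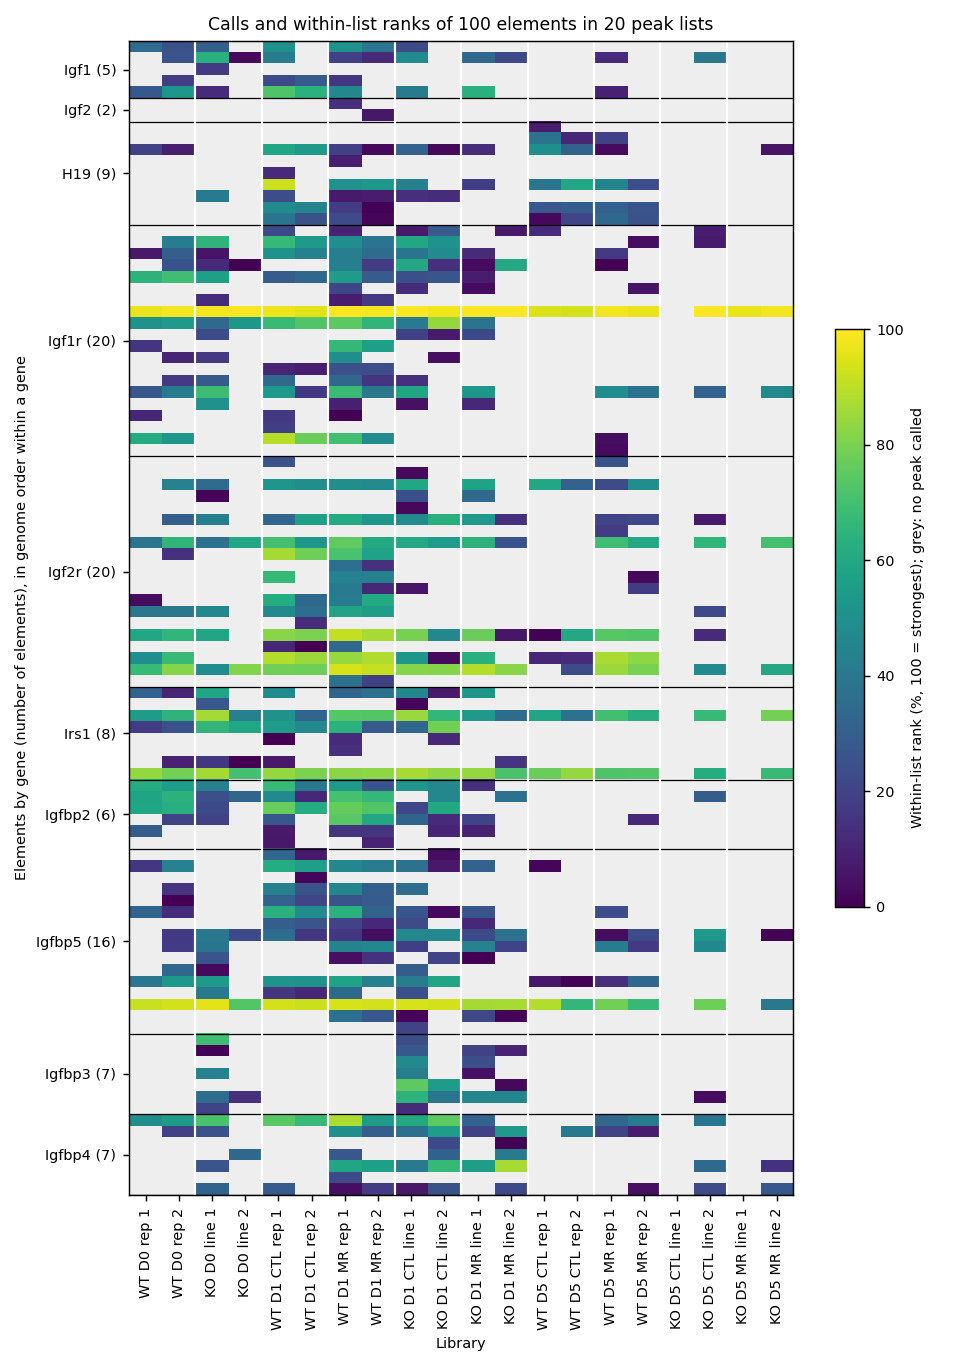
Each row is 1 of the 100 elements, grouped by gene with the number of elements in brackets, and each column is 1 of the 20 libraries; colour gives the within-list rank in percent (100 is the strongest peak of that list) and grey means no peak called. Igfbp3 is grey in every WT library, H19 is mostly grey in KO, and 1 row of Igf1r is near 100 in 19 libraries.

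The number of elements called followed the length of each list. It was 30 and 43 in the WT D0 libraries, 58 and 42 in WT D1 CTL, 71 and 58 in WT D1 MR, 16 and 15 in WT D5 CTL, and 30 and 25 in WT D5 MR. In KO, lines 1 and 2 gave 50 and 15 at D0, 59 and 41 at D1 CTL, 41 and 24 at D1 MR, 0 and 20 at D5 CTL, and 1 and 11 at D5 MR. The share of all regions called went the same way, from 19.6% to 66.9% over the WT libraries and from 0.632% to 60.6% over the KO libraries. The part of list length in any difference of calls was not tested.

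**Figure D2:**
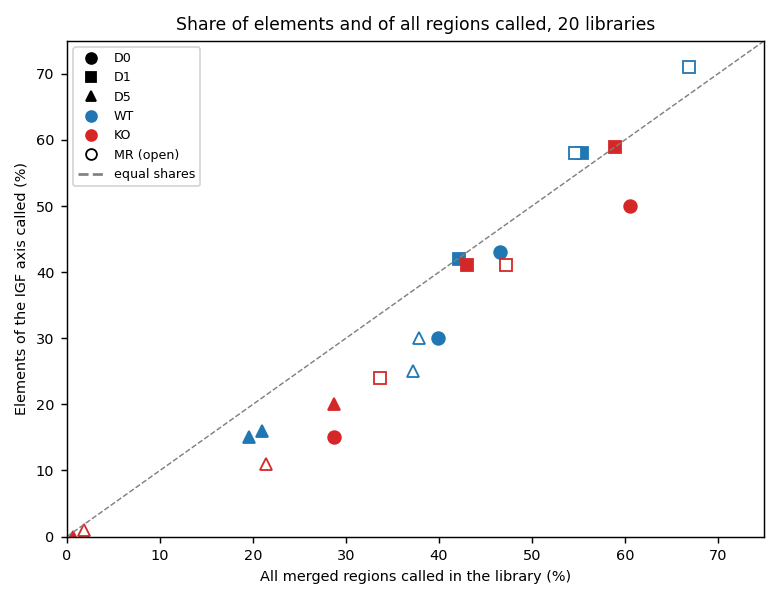
Each point is 1 library, with the percent of all 101352 merged regions called on the x axis and the percent of the 100 elements called on the y axis; colour gives genotype, shape gives day, open symbols are MR and the dashed line marks equal shares. The 4 libraries above the line are WT D1 CTL replicate 1, both WT D1 MR libraries and, by 59% against 58.9%, KO D1 CTL line 1.

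The gene starts of the axis ranged from called in 18 libraries to called in 0. The start of Irs1 was called in 18 libraries (10 WT, 8 KO) and that of Igf1r in 10 (6 WT, 4 KO). The Igfbp2 start was called in 9 libraries, the window of the Igfbp5 start in 5, and the Igfbp3 start in 3, all of KO line 1. The window of the Igf1 start was called in 0. Counted within 1 kb of the start, calls were in 13 libraries for Igf1r, 11 for Igfbp2, 13 for Igfbp5, 3 for Igfbp3 and 7 for Igf1. No peak of any library lay within 1 kb of the 4 starts of Igf2, of the Igf2r start or of the Igfbp4 start in the table, although an element 1228 bp upstream of the last was called in 11 libraries. The start of Airn inside Igf2r was called in 16 libraries (8 WT, 8 KO). The windows below run from 250 bases before to 50 bases after the start and come from the RefSeq promoter table of build GRCm38.p6, which matched 9 of the 10 genes. They are printed 5′ to 3′ on the strand of the gene, with capitals for bases inside a called element. Shown are the most often called starts of the member genes (Irs1, Igf1r) and the start called only in a knockout line (Igfbp3). The last pair is a gene whose own start was uncalled and whose antisense start was called (Igf2r, Airn).
Irs1 start, chr1:82291390-82291689, minus strand: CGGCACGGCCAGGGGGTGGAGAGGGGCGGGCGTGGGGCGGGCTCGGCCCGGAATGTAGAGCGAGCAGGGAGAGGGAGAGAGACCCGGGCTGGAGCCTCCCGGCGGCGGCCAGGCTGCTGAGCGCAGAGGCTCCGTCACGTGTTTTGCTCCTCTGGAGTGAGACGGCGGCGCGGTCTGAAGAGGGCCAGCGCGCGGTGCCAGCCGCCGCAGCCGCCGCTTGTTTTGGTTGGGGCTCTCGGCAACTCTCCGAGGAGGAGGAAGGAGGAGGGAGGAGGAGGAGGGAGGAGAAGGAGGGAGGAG
Igf1r start, chr7:67952007-67952306, plus strand: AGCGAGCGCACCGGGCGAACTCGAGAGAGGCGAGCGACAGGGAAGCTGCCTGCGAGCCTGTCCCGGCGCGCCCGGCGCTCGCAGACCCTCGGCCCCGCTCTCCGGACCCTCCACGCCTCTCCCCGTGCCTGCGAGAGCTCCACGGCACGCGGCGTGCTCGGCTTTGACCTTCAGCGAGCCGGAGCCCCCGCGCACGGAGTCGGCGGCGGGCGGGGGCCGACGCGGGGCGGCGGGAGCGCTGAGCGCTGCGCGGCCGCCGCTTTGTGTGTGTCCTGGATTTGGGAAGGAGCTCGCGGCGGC
Igfbp3 start, chr11:7213874-7214173, minus strand: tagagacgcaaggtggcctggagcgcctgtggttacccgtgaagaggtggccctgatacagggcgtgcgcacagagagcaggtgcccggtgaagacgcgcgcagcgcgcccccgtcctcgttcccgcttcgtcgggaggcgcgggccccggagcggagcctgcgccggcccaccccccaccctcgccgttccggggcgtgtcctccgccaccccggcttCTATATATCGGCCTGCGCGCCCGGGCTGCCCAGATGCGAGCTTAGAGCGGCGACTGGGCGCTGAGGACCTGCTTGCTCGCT
Igf2r start, chr17:12769657-12769956, minus strand: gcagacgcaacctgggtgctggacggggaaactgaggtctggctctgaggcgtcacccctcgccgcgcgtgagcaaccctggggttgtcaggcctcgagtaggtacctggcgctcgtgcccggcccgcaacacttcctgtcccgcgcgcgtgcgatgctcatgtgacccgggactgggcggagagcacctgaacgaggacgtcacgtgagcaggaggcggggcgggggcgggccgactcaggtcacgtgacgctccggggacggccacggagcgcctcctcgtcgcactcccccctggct
Airn start, chr17:12741061-12741360, plus strand: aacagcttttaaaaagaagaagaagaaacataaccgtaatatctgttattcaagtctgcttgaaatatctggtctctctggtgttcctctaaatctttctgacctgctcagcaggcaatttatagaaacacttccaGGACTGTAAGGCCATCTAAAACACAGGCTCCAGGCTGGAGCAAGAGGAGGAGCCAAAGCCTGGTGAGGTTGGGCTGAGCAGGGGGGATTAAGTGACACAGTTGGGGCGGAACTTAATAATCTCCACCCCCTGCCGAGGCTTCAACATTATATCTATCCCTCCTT
All 300 bases of the Irs1 and Igf1r windows lay in an element, against 81 of Igfbp3, 164 of Airn and 0 of Igf2r. The called Irs1 start and the uncalled Igf2r start were close in base composition, and the called Airn start differed from both. The Igf2r window held 70.7% G and C and 34 CG pairs, the Irs1 window 71.3% and 28, and the Airn window 45.7% and 3, where the median of 32851 promoters was 52.7% and 7. The motif GGGCGG, searched on both strands, occurred 2 times in the Irs1 and Igf1r windows, 3 times in Igf2r, 1 time in Airn and 0 times in Igfbp3, and 35.7% of all promoters held it. CANNTG, the E-box that muscle regulatory factors bind, occurred 4 times in the Igf2r window, 2 times in Igfbp3, 1 time each in Irs1 and Airn and 0 times in Igf1r, and 72.3% of promoters held it.

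Genotype was compared by the share of libraries in which an element was called, with KO and WT labels permuted within the 5 conditions in an exact permutation test (two-sided, with p adjusted by the Benjamini-Hochberg method over 18700 regions, those able to reach a p of 0.05). Of 26 elements tested, 5 were called less often in KO and 1 more often. The test included the 2 short KO lists of D5, whose missing calls count towards lower in KO, for elements and all regions alike. Over all regions tested, 16.1% were called less often and 2.73% more often, so the share of elements that passed was near that of the genome. The 5 lower elements were 2 between H19 and Igf2 and 1 each in Igf2r, Igf1r and Igfbp5, and the higher one lay upstream of Igfbp3. The 2 between H19 and Igf2 lay close together and had the same calls in every library, so they are not separate evidence. At an unadjusted p under 0.05 there were 11. All 6 were lost without WT replicate 1, WT replicate 2 or KO line 2 (adjusted p 0.0596 to 0.147, exact permutation test), designs of 243 arrangements in which no region of the genome passed. Nothing in the labels says that the WT replicates came from separate cultures, and the 2 KO lines recur in every condition, so p-values measure the spread between these libraries.

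The ligands had few elements. Igf2 had 2, each called in 1 WT D1 MR library, at a rank of 13.9% inside the gene and 6.4% upstream, with no call in KO. The within-list rank is the percentile of the −log10 q-value of a peak in its own list, and 100% is the strongest; since lists differ in length it describes a peak and shows no change between libraries. Igf1 had 5 elements, all inside its annotated span, with 20 calls in WT and 12 in KO. These are 40% and 24% of the possible calls (30% in KO without the 2 short lists), beside 42.1% and 32.5% (40.3%) of all regions. The element nearest a start, 344 bp upstream of the Igf1 start used here (chr10:87860639-87860767), was called in both WT D0, 1 WT D1 CTL and both WT D1 MR libraries at ranks of 24.8% to 51.0%, and in KO line 1 at D0 and D1 CTL at 30.6% and 22.8%. It was called in no D5 library. The element of Igf1 with the highest median rank (46.1%), 66257 bp downstream of the start (chr10:87927368-87927644), was called in 6 WT and 3 KO libraries at 9.3% to 72.3%. Of the 5 Igf1 elements, 3 could be tested for genotype and 2 for day, and none of these passed (exact permutation test, adjusted as described above). No Igf1 element could be tested for medium, and no Igf2 element in any comparison. On chromosome 10, where Igf1 lies, regions called in all 12 D0 and D1 libraries ranked lower in KO, with a median shift of -4.29 percentage points in line 1 and -6.24 in line 2, and the part of this in the Igf1 calls was not tested.

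Around H19, which produces an abundant imprinted RNA in muscle precursors, elements were called 41 times in WT and 9 times in KO. That is 45.6% of the possible calls in WT and 10% in KO (12.5% without the 2 short lists), against 42.1% and 32.5% (40.3%) over all regions. A pair of elements far upstream of the gene, towards Igf2, was found only in WT at D1 and D5. They lay 22299 bp (chr7:142600445-142600597) and 22787 bp (chr7:142600933-142601257) from the 5′ end of H19, in the interval between both genes. The nearer one was called in all 8 WT libraries of D1 and D5, at ranks of 47.4% and 45.3% in D1 CTL, 17.6% and 0.4% in D1 MR, 27.3% and 29.5% in D5 CTL, and 30.7% and 26.0% in D5 MR. The farther one was called in the same 8 libraries at 1.5% to 38.7%. Neither was called in the 2 WT D0 libraries or in any of the 10 KO libraries. These KO libraries include the 2 short lists of line 1 at D5, which called 0 and 1 of the 100 elements. The share of libraries called was lower in KO by 0.8 for each (p = 0.00154, adjusted p = 0.0353, exact permutation test), with adjusted p of 0.0469 to 0.147 over the alternatives that gave a value. The nearer element had a value in 6 alternatives and the farther one in 5, and each passed in 2. Without the D5 libraries, or without the KO D5 libraries, neither could be tested. These peaks were of low to middle strength in their lists. At D1 CTL the lists held 60173 and 45545 peaks in WT and 61045 and 46664 in KO lines 1 and 2. At D1 MR they held 69881 and 57676 in WT and 48460 and 35201 in KO. At D5 the WT lists held 22465 and 20847 peaks in CTL and 39538 and 39263 in MR. Those of KO lines 1 and 2 held 644 and 29963 in CTL and 1881 and 22062 in MR. The part of list length in these calls was not tested.

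The same calls in all 20 libraries were shared by 143 other regions, and 20 protein-coding genes had such a region within 1 kb of an end. The 3 with the widest regions were Josd2, Hrc and Trpm4, and the list also held Akt1, the kinase downstream of PI3K, Myog, the muscle regulator myogenin, and the contractile genes Acta1, Tnnc1, Tnni2 and Tnnt2, these 6 chosen after their values were seen. Of the muscle differentiation markers, 5 of 5 had a peak in some library, Myog in 8 WT and 0 KO, Actc1 in 6 and 0, Ckm in 5 and 0, Acta1 in 8 and 1, and Mymk in 10 and 4. These are counts with no test, and the KO counts include the 2 short lists. Their part in the H19 result was not tested.

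**Figure D3:**
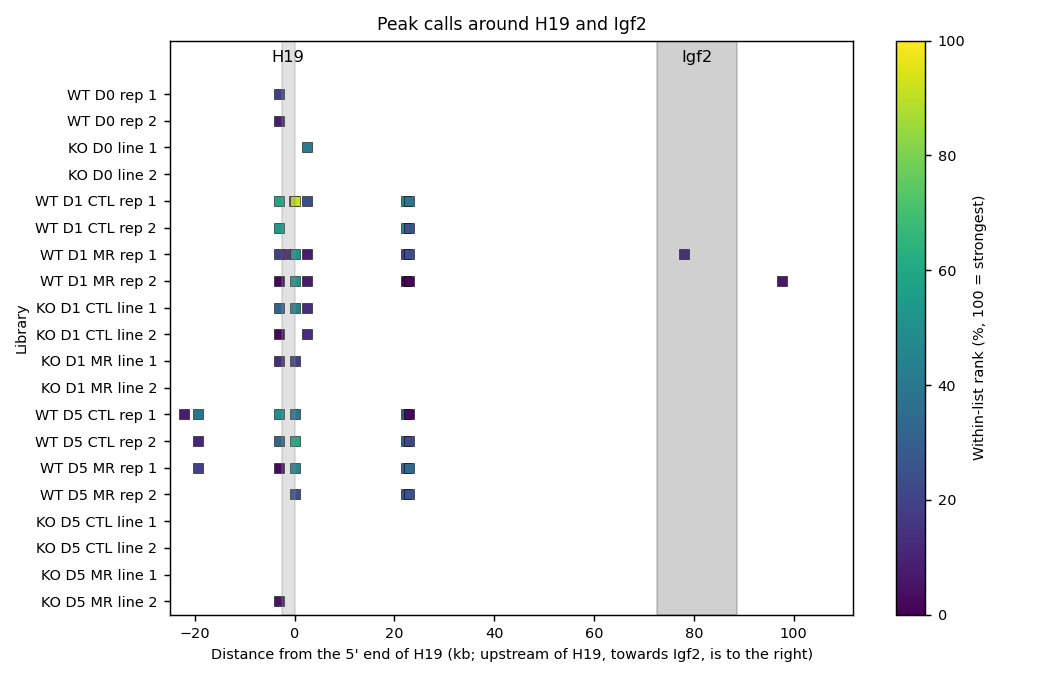
Squares mark elements called in each of the 20 libraries (y axis) at their distance from the 5′ end of H19 in kb (x axis), coloured by within-list rank in percent; shaded bands are the spans of H19 and Igf2. The pair of squares at 22.3 and 22.8 kb occurs in the 8 WT libraries of D1 and D5 alone, and the space from there to Igf2 holds no call.

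Close to H19, an element just past the 3′ end of the gene (chr7:142574546-142575391) was called in 9 WT and 4 KO libraries, with the highest ranks in WT D1 CTL, 58.6% and 54.1%. An element 60 bp upstream of the 5′ end (chr7:142578206-142578345) was called in 7 WT and 2 KO libraries. It was absent from all D0 lists and from all KO D5 lists, and ranked 92.2% in 1 WT D1 CTL library but was not called in the other. In the stretch upstream where the imprinting control region of the locus lies, an element 2126 bp from the 5′ end (chr7:142580272-142580816) was called in KO line 1 at D0, in 5 of 8 D1 libraries and in none at D5. Its ranks were 7.2% to 41.3%. Inside H19, 1 element at 85 bp and 1 at 1519 bp from the 5′ end were each called in 1 library. An element 19100 bp downstream of the 5′ end of H19 (chr7:142558642-142559046) was called only at WT D5, at 38.7% and 10.6% in CTL and 19.2% in 1 MR library. It was the only element called in both WT D5 CTL libraries and neither WT D1 CTL library, a pattern found in 0.237% of all regions, while 27 elements showed the opposite against 19.04% of regions.

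Igf1r, the receptor tyrosine kinase of the axis, had the element called in the most libraries. It lay 69493 bp into the gene (chr7:68021750-68022092) and was called in 19 libraries, all but KO line 1 at D5 CTL. Its ranks ran from 93.3% to 99.4% with a median of 98.4%, which puts it among the strongest peaks of every list that called it. The Igf1r start element (chr7:67951434-67952386) was weaker, at 3.9% to 66.8% in 10 libraries. Deep in the gene, 242221 bp from the start (chr7:68194478-68194664), an element was called in 7 WT and 0 KO libraries. Its ranks were 61.5% and 52.8% in WT D0, 89.4% and 77.6% in D1 CTL, 69.8% and 48.1% in D1 MR, and 3.7% in 1 WT D5 MR library, so 1 of the 4 WT D5 lists held it, near the bottom of that list. The share called was lower in KO by 0.7 (adjusted p = 0.0412, exact permutation test). Over the alternatives the adjusted p was 0.0469 to 0.147, without KO line 1 it was 0.0552, and without the D5 libraries the difference was complete, with all 6 WT and no KO library calling it (adjusted p = 0.0494). Its calls in all 20 libraries were shared by 51 other regions, 1 of them at Proca1.

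Igf2r, the scavenger receptor for IGF2, carried the element with the largest change of the 7 that could be compared in WT. It lay 9616 bp downstream of the Igf2r start (chr17:12759625-12760090). To compare strength between libraries, regions called in all 10 WT libraries (15812 regions, 7 elements) were ranked among themselves in each library. On this common-region rank the element stood at 16.9% and 25.6% in D0, 63.3% and 61.6% in D1 CTL, 44.6% and 60.1% in D1 MR, 4.69% and 6.66% in D5 CTL, and 69.3% and 60.04% in D5 MR. It was thus lower at D0 than at D1 in both media, and at D5 lower in CTL than in MR, with no overlap between the media at D5.

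These ranks were tested as normal scores with limma, with Benjamini-Hochberg adjustment over the 15812 regions. At D5, MR was higher than CTL by 1.97 (SE 0.24, adjusted p = 0.00089). From D1 to D5 in CTL the element fell by 1.91 (SE 0.24, adjusted p = 0.000466), and from D0 to D1 CTL it rose by 1.13 (SE 0.24, adjusted p = 0.0178). Both D5 differences passed with any 1 WT library left out (adjusted p at most 0.0118 for medium and 0.00673 for day). The D0 to D1 rise did not pass without any 1 of the 4 libraries it compares (adjusted p 0.0615 to 0.107). Of the 7 elements, 2 passed for MR against CTL at D5, where 27.3% of all regions passed, 3 for D5 against D1 in CTL (31.0% of regions), 1 for D1 CTL against D0 (5.80%), 0 for MR against CTL at D1 (5.79%) and 0 for D5 against D1 in MR (12.4%). At an unadjusted p under 0.05 the last 2 comparisons gave 2 and 1 elements by limma. A neighbouring element, 11440 bp downstream of the start, did not pass in any of them, and its replicates stood at 0.168% and 50.2% in D5 CTL.

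In KO the same Igf2r element was called in 3 libraries, at within-list ranks of 52.8% and 2.7% at D1 CTL in lines 1 and 2 and 63.4% at D1 MR in line 1, against 10 of 10 WT libraries. The share called was lower in KO by 0.7 (adjusted p = 0.0412, exact permutation test; 0.0443 to 0.147 over the alternatives). Chromosome 17 as a whole stood lower in KO line 2. At D0 and D1 its common regions had a median rank shift of -8.36 percentage points from WT, against 0.668 on other chromosomes, and the part of this in the Igf2r result was not tested. In line 1 the shift of chromosome 17 was 0.321 points above WT. Neither line called the element at D0. The lists of line 1 called 60.6%, 58.9% and 47.2% of all regions at D0, D1 CTL and D1 MR, and those of line 2 28.7%, 43.0% and 33.6%. The part of list length in the calls of this element was not tested. The calls of this element were shared by 54 other regions, with Gpr20, Baiap2 and Mymx, a muscle fusion factor, the 3 genes with the widest ones at an end.

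Over all 20 Igf2r elements, 18 of them inside the gene, there were 87 calls in WT and 42 in KO. These are 43.5% and 21% of the possible calls (26.2% in KO without the 2 short lists), beside the 42.1% and 32.5% (40.3%) of all regions. Elements 17846 and 20009 bp downstream of the start were each called in 5 WT and 0 KO libraries, which did not pass after adjustment (adjusted p = 0.0666, exact permutation test). The element at the Airn start was called in 8 WT and 8 KO libraries at ranks of 25.2% to 75.6%. In WT it was missing from both D5 CTL libraries and present in both D5 MR libraries (69.1% and 60.2%). The highest-ranked Igf2r element, 13290 bp upstream of the gene (chr17:12782996-12783384), was called in 9 WT and 8 KO libraries with a median rank of 81.3%.

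**Figure D4:**
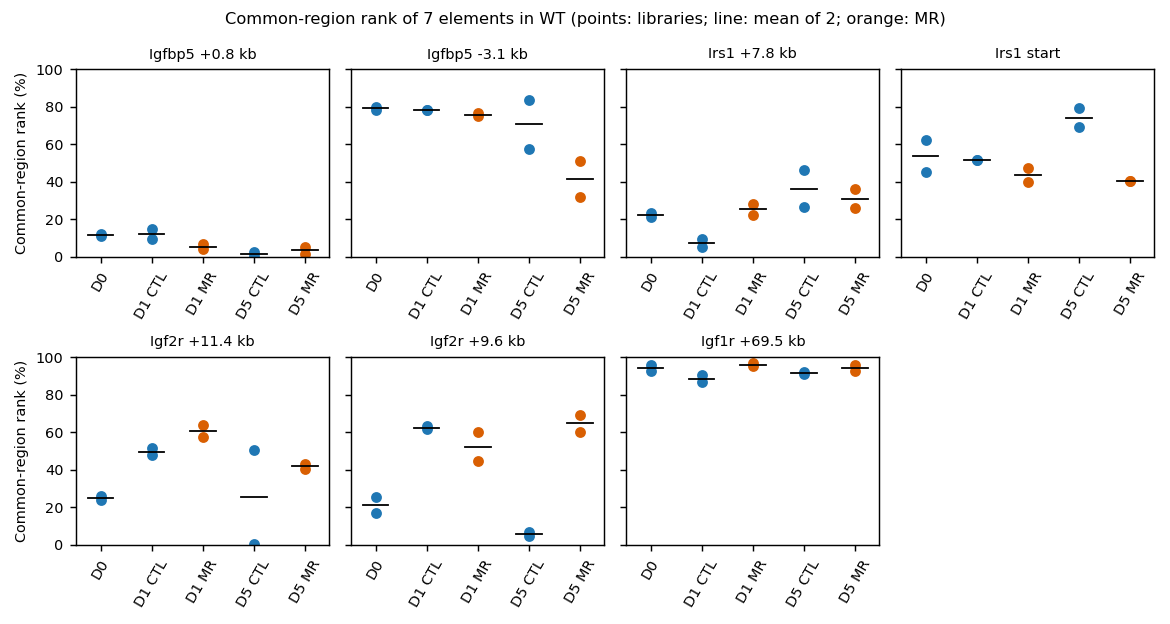
Common-region rank in percent (y axis, 100 is strongest) of the 7 elements called in all 10 WT libraries, by group (x axis); points are libraries, lines the mean of 2, and orange marks MR. The Igf2r element at 9.6 kb is at 4.69% and 6.66% in D5 CTL and at 69.3% and 60.04% in D5 MR, while the Igf1r element at 69.5 kb stays above 86% in every library.

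Among the binding proteins, Igfbp3, the main carrier of IGFs in blood, was called in KO alone. Its 7 elements had 0 calls in WT and 23 in KO, 16 in line 1 and 7 in line 2. Of 7403 protein-coding genes with at least 7 regions in such a window, 19 (0.257%), Igfbp3 among them, had no WT call, and 4 had no KO call. This was counted without a test. The strongest case was an element 13005 bp upstream of the Igfbp3 start (chr11:7226928-7227469). Lines 1 and 2 called it at 35.9% and 13.6% at D0, 64.7% and 38.3% at D1 CTL, and 45.6% and 45.9% at D1 MR, and line 2 at 3.5% at D5 CTL. All 6 KO libraries of D0 and D1 thus had a peak and none of the 10 WT libraries did. The share called was higher in KO by 0.7 (adjusted p = 0.0412, exact permutation test; 0.0469 to 0.147 over the alternatives). Without the D5 libraries the difference was complete (adjusted p = 0.0494).

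The rest of Igfbp3 was carried mostly by line 1. The start element (chr11:7213473-7213954) was called in line 1 at D0, D1 CTL and D1 MR at ranks of 44.3%, 42.2% and 4.4%, and never in line 2. An element 12427 bp upstream was called in both lines at D1 CTL, at 75.1% and 54.9%, and in line 2 at D1 MR at 2.3%. Of the other 4, an element 3325 bp into the gene was called in both lines at D1 MR and the remaining 3 were called in line 1 only. The calls of the element 13005 bp upstream were shared by 82 other regions, with Ccl20, Fsip1 and Cacnb2 the 3 genes with the widest ones at an end. Of all regions 20.1% were called in KO alone, and of the 100 elements 15%, of which 7 belonged to Igfbp3. In WT alone these shares were 21.8% of regions and 29% of elements.

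**Figure D5:**
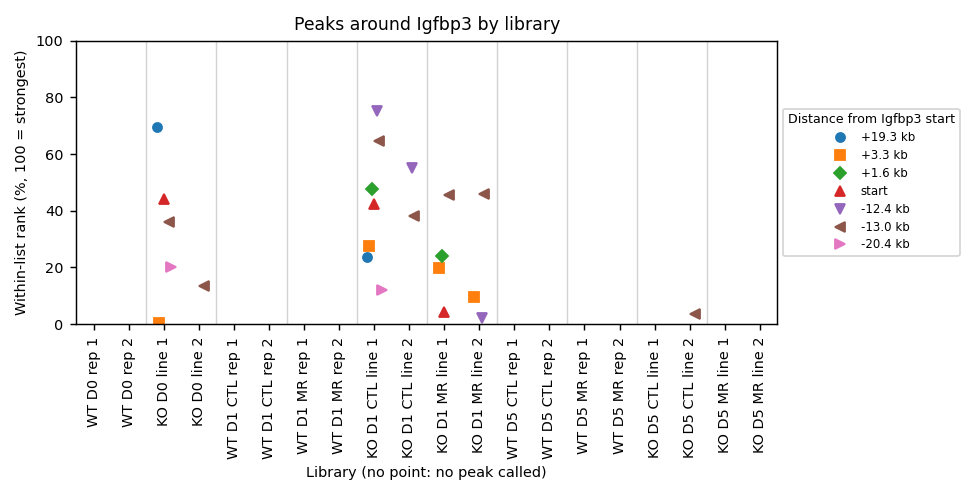
Within-list rank in percent (y axis) of the 7 Igfbp3 elements in the 20 libraries (x axis), 1 symbol for each element by distance from the start; no point means no peak called. No WT library has a point, and the element 13 kb upstream has a point in all 6 KO libraries of D0 and D1.

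Igfbp5, the binding protein best known from differentiating muscle, had 16 elements and 71 WT against 45 KO calls. These are 44.4% and 28.1% of the possible calls (35.2% in KO without the 2 short lists), beside 42.1% and 32.5% (40.3%) of all regions. The element 3078 bp upstream of its start (chr1:72877943-72878159) was called in 18 libraries with a median rank of 90.1%, from 39.9% in KO line 2 at D5 MR to 95.9%. An element 846 bp into the gene (chr1:72873848-72874019) was called in 10 WT libraries and in 3 KO libraries, line 1 at D0 and both lines at D1 CTL. In those 3 KO libraries it ranked 42.1% to 59.0%, against 39.3% to 58.1% in WT at D0 and D1, and it was called in no KO library under MR or at D5. The share called was lower in KO by 0.7 (adjusted p = 0.0412, exact permutation test; 0.0469 to 0.147 over the alternatives). In WT its common-region rank fell from 9.49% and 14.7% at D1 CTL to 2.65% and 0.231% at D5 CTL, a difference of -1.204 in normal scores (SE 0.31, limma with Benjamini-Hochberg adjustment, adjusted p = 0.0132). That call was lost without 1 WT D1 CTL library or 1 WT D5 CTL library, replicate 2 in each case (adjusted p = 0.0776 and 0.0804), and on plain percentiles (adjusted p = 0.0929). Without WT D5 CTL replicate 2 the difference was -0.76. With replicate 1 alone in both groups it was -0.62, and with replicate 2 alone -1.78.

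The element at the upstream one of the 2 Igfbp2 starts (chr1:72824469-72824869) was called in all 6 WT libraries of D0 and D1, at 58.7% to 76.95%, and in KO line 1 at D0 (22.4%) and both lines at D1 CTL (21.7% and 60.8%). It was called in no library at D5. The element 90 bp past the second start (chr1:72825477-72825646) was called in 5 WT and 4 KO libraries, 1 of them at D5, a WT MR library at 11.5%. Igfbp4, which inhibits IGF action, had no peak within 1 kb of the start in the promoter table. An element 1228 bp upstream of that start (chr11:99039863-99040016), across the 5′ end of the annotated gene span, was called in 6 WT and 5 KO libraries at a median rank of 30.2%. By count, Igfbp4 was the only member apart from Igfbp3 with more calls in KO (28) than in WT (22). Without the 2 short lists, Irs1 also had a higher share of its possible calls in KO, 46.9% against 45% in WT. For Igfbp4 the shares were 31.4% in WT and 40% in KO (50% without those lists), beside 42.1% and 32.5% (40.3%) of all regions. Its element 6012 bp into the gene (chr11:99047256-99047448) was called in 7 KO libraries and in 2 WT libraries, both D1 MR, at 14.8% to 86.8% (adjusted p = 0.082, exact permutation test, which did not pass).

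Irs1, the docking protein that links the receptor to PI3K, had a start open in every list of usual length. Its element (chr1:82290703-82291791) ranked 62.0% to 86.8% in 18 libraries, with a median of 81.4%. A second element, 7787 bp into the gene (chr1:82283026-82283652), was also called in 18 libraries, at a median rank of 63.8%. In WT the common-region rank of the start was 62.3% and 45.2% at D0, 51.8% and 51.3% at D1 CTL, 39.7% and 47.4% at D1 MR, 69.1% and 79.3% at D5 CTL, and 40.5% and 40.6% at D5 MR. At D5 the media did not overlap, and the difference of MR from CTL was -0.90 in normal scores (SE 0.24, limma, adjusted p = 0.0171). This was opposite in direction to the Igf2r element described above. The call was lost without WT D5 CTL replicate 2 or either WT D5 MR library (adjusted p 0.0625 to 0.0797).

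The second Irs1 element rose in WT from 9.37% and 5.35% at D1 CTL to 46.1% and 26.3% at D5 CTL, by 1.10 (SE 0.25, limma, adjusted p = 0.00741). Without WT D1 CTL replicate 2 the adjusted p was 0.0532. At D1 it moved with restriction in opposite directions in the genotypes. Ranked among the 19629 regions common to the 12 D0 and D1 libraries, it went from 15.7% and 10.8% in CTL to 28.2% and 36.4% in MR in WT, and from 58.5% and 34.5% to 20.2% and 14.4% in KO lines 1 and 2. The difference of these responses was -1.52 (SE 0.52) and did not pass after adjustment over all regions (limma, adjusted p = 0.9999), nor did the other 5 elements or any region (0%). It was the 1 element with an unadjusted p under 0.05. For restriction in KO at D1 itself, 0 of 6 elements passed (0% of regions), with 1 at an unadjusted p under 0.05. For genotype at D0 and D1 on this rank, 0 of 6 elements passed by limma, with 0 at an unadjusted p under 0.05, where 12.5% of regions passed. Without KO line 2, 2 elements passed.

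The largest change in calls over the axis was with day. Of 26 elements tested, 15 were called less often at D5 than at D1 and none more often (exact permutation test within genotype and medium, adjusted over 16153 regions), where 66.2% of regions tested were called less often at D5. The share of elements was thus near the background, and every D5 list was shorter than the D1 list with the same genotype, medium and replicate or line. The smallest p was shared by 3 elements, 8572 bp upstream of Igfbp2 and 16236 and 78656 bp into Igf1r (p = 0.00463, adjusted p = 0.0379, exact permutation test). Each was called in 7 D1 libraries and 0 D5 libraries. The Igfbp2 start and an element 7307 bp into Irs1 went from 6 to 0 libraries. The other 10 included 5 of Igfbp5, at 16963, 9889, 7037 and 5444 bp downstream of the start and 3598 bp upstream of it. The rest were 2 of Igf1r (435 and 9764 bp into the gene), 1 of Irs1 (67752 bp downstream of the start), 1 of Igf2r (31504 bp into the gene) and the H19 element 2126 bp upstream. Without either WT replicate no element passed, in a design with 144 arrangements, without KO line 1 there were 6, and with the 20000 strongest peaks of each list there were 0.

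No difference of calls between the media passed. Of 4 elements tested 0 passed, with 0 at an unadjusted p under 0.05, and 0% of 3909 regions passed (exact permutation test). The test averaged MR minus CTL over both genotypes and both days, so opposite responses in WT and KO would cancel. In a simulation the adjusted test for medium found 0 of 200 changed regions. The result thus does not show that calls were unchanged. Counted without a test, WT at D1 had 11 elements called in both MR and neither CTL library and 1 the other way, against 7.73% and 1.33% of all regions. WT at D5 had 6 and 0, against 11.9% and 0.211%. KO at D1 had 0 and 5, against 0.253% and 2.74%, and the 5 were the Igfbp2 and Igf1r starts, Igfbp5 at 846 bp, Irs1 at 7307 bp and the H19 element 2126 bp upstream.

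Other genes of the pathway were counted by the same rule. The windows of 47 further genes (other receptors and adaptors, binding protein proteases, Igf2 mRNA binding proteins, PI3K, Akt and mTOR steps, and imprinted growth genes) held 464 elements, at 44 of the genes. By genotype 77 were tested, and 17 (22.1%) were called less often in KO, where 16.1% of all regions were. They included 3 at Rptor, a subunit of mTOR complex 1, and 2 at Insr, the insulin receptor, and the 1 called more often lay at Igfbp7. By day 89 were tested and 65 (73.03%) were called less often at D5, where 66.2% of all regions were, 11 of them at Rptor and 5 at Irs2, the second main IRS adaptor. Both shares were near those of all regions. By medium 0 of 19 passed (exact permutation test, as above, with the limits given for medium).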

How the data were processed

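Data were 20 broadPeak lists, 1 for each ATAC-seq library; per the labels' protocols DNA was amplified with 10 PCR cycles, and the build GRCm38 is given by the submitters' processing notes. The aligner, filters, read shift and peak caller are not given in the sources used here. The deposited lists hold the authors' score, fold enrichment (a ratio), −log10 p-value and −log10 q-value (lowest 1) of each peak, called per library; the −log10 q-value ranked peaks within a list and the fold enrichment was an alternative.

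The 787806 peaks were joined at 1 bp of overlap. Calls were tested with an exact permutation test within strata (7776 arrangements for genotype, 1296 for medium and for day), and common-region ranks with limma 3.58.1 (R 4.3.3), at an adjusted p of 0.05. On simulated data with 200 changed regions of 101352, the adjusted test found 200 for genotype and 0 for medium and day, while all 200 had an unadjusted p under 0.05. The changed regions were picked from widely called ones. They were set as called in all libraries of 1 side and in none of the other, a larger difference than any element that passed had. The simulation thus does not show how often smaller differences are found. With limma, 49 of 200 regions shifted by 1 normal score were found for genotype (of 19629, with 5 false calls) and 0 for medium in WT at D1 (of 15812).

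Members and lists were chosen with earlier results of these data known. Named elements are, for each gene, the most called one within 1 kb of an end and the one of highest median rank, those past an adjusted p of 0.05 (12 a comparison; 5 tied at that limit for day, so all 15 were named), and those within 5 kb of H19; others were named after their values were seen. Distances are from the nearest RefSeq start, for H19 from the 5′ end of its span. KO libraries can be paired by line (correlation of line differences 0.381 to 0.544 between groups), while WT numbers pair nothing in the labels (-0.0348 to 0.137). The main tests did not use this pairing, and the line entered as a block only among the alternatives. Alternatives changed the peak threshold, overlap, list length, libraries, block, rank measure and window; leaving out single WT libraries was chosen after seeing the data.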

Additional observations from a re-analysis of the deposited data

Results flagged for a closer look

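At D1 the mean number of elements called differed between MR and CTL in opposite directions in the 2 genotypes. In WT it was higher in MR by 14.5 elements on average (64.5 against 50), with 71 and 58 in MR against 58 and 42 in CTL, so the media met at 58. WT replicate numbers do not pair the libraries. In KO it was lower, with a mean difference of -17.5 (32.5 against 50), -18 in line 1 and -17 in line 2. The difference between genotypes was not tested. The share of all regions called moved alike, by 11.97 percentage points in WT and -10.6 in KO, and its part in the difference of elements was not tested.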

How the results depend on the processing

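No called value changed direction under any alternative run. Counts here are of all elements passing under a setting, which need not be the same elements. For genotype (6 as reported) there were 0 with only peaks of −log10 q of 5 or more, 0 when peaks had to cover 50% of a region, and 2 each with the 20000 strongest peaks (1 of them among the 6), without the KO D5 libraries and without the D5 libraries (both among the 6). Without the D5 or the KO D5 libraries only 2 of the 6 could be tested. Ranges of adjusted p given for calls over the alternatives cover only settings in which the element could be tested. Leaving out 1 replicate number gave 0 to 6, in designs of 243 arrangements, and without KO line 1, 5 of the 6 passed. For day (15 as reported) there were 7 at 50% cover (4 of them among the 15) and 0 with the 20000 strongest peaks, and leaving out 1 replicate number gave 0 to 11. For ranks, D5 against D1 in MR gave 1 element with ranks of fold enrichment, and genotype gave 0 to 2 with a replicate left out. With single WT libraries left out, elements passing ranged from 0 to 1 (MR against CTL at D1), 1 to 3 (at D5), 0 to 1 (D1 CTL against D0), 1 to 3 (D5 against D1 in CTL) and 0 to 1 (in MR). With the replicate block the counts were 6 for genotype, 0 for medium and 10 for day (16 with the block in KO only), and 0 to 3 for ranks. Leaving a replicate number out of the WT ranks left 1 library a group and gave values without a test; the day test without the KO D5 libraries and the medium test without KO line 2 could test no element. The cause of these changes was not tested. Windows of 5 and 50 kb held 86 and 138 elements. Calls depend on read depth, which is unknown, so low peaks may be missed in short lists, and 2 libraries a group limit every test.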
